A study of Mus musculus with 3 samples.

Results

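The 10 genes described here encode chaperones, folding helpers and regulators of the endoplasmic reticulum (ER) unfolded protein response (UPR): Herpud1, Hspa5, Hsp90b1, Xbp1, Dnajb9, Sdf2l1, Creld2, Manf, Calr and Pdia4. They were picked by symbol from the 32285 genes of the feature lists, with their values in these libraries already known, so all counts below describe them and carry no test. The study exposed E14 mouse embryonic stem cells (mESCs, 129/Ola background) to tubercidin, an adenosine analog with carbon in place of 1 ring nitrogen of adenine, and profiled single cells with the 10x Genomics 3′ v3 chemistry, which counts polyadenylated transcripts by unique molecular identifiers (UMIs). The cells grew on gelatin in medium with fetal bovine serum and leukemia inhibitory factor. The 3 groups, which the labels call control, tub_3h and tub_6h, began treatment 24 h after seeding and received DMSO for 6 h, 10 uM tubercidin for 3 h or 10 uM tubercidin for 6 h. Each group was 1 library of 1 cell line. Differences between groups therefore have no replicate check, and the DMSO control matches the 6 h arm in time but not the 3 h arm.

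The ER folds secreted and membrane proteins with the help of chaperones. When unfolded proteins build up there, the sensors IRE1, PERK and ATF6 are released from the chaperone BiP and signal to the nucleus. IRE1 splices Xbp1 mRNA into the form that encodes an active transcription factor, ATF6 is cut to release one, and PERK phosphorylates eIF2α, which lowers translation while favouring that of ATF4. Together these factors raise genes for folding, for export of misfolded proteins to the proteasome (ER-associated degradation) and for lipid synthesis.

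ATF6 with NF-Y and XBP1 act through short promoter elements, so the promoters with a match are shown first. Of the 10 genes, 9 had a promoter entry in the RefSeq table (GRCm38.p6), and Manf had none. Windows of 250 bases before to 50 after the RefSeq start were searched on both strands. The ER stress response element ERSE (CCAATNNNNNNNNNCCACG) was found in 4 of the 9, those of Hspa5, Hsp90b1, Calr and Creld2, and in 0.119% of all 32851 promoters of the table (39 promoters). The related ERSE-II (ATTGGNCCACG) was found in Herpud1, against 0.0365% of all promoters (12 promoters). The core of the amino acid response element bound by ATF4 and C/EBP partners (TGATGNAA) was also found in Herpud1, and in 3.97% of all promoters. The core of the unfolded protein response element (TGACGTGG; 0.676% of all promoters) and the cyclic AMP response element (TGACGTCA; 1.79%) had no match in the 9. None of these motifs overlapped another in the 9 promoters. The median GC content of the 250 bases was 65.2% in the 9 and 52.4% over the table. A match describes letters, not binding. The genes were picked as UPR genes, and ERSE and ERSE-II are elements of that response. Matches were thus likely beforehand, and the shares beside them carry no test. The sequences below run 5′ to 3′ on the gene's strand and stop before the first annotated start in RefSeq or GENCODE M21. Capitals mark the fixed letters of ERSE or ERSE-II matches (CCAAT and CCACG, or their reverse complements ATTGG and CGTGG), and in Herpud1 also those of the amino acid response core. Of Hspa5, whose match lies within a longer GENCODE transcript, only the site with 5 bases on each side is given.

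Herpud1 (chr8:94386179-94386428, plus strand): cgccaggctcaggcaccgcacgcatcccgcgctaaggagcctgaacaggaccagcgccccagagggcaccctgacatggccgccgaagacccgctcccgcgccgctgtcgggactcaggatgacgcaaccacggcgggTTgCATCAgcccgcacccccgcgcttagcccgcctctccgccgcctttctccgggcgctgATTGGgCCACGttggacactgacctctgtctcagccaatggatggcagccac

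Hspa5 site (chr2:34772020-34772048, plus strand): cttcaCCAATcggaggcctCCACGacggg

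Hsp90b1 (chr10:86705510-86705694, minus strand): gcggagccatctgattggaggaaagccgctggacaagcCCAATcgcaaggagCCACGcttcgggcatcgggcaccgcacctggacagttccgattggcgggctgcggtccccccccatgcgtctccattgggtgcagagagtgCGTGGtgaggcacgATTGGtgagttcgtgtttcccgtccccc

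Creld2 (chr15:88819396-88819645, plus strand): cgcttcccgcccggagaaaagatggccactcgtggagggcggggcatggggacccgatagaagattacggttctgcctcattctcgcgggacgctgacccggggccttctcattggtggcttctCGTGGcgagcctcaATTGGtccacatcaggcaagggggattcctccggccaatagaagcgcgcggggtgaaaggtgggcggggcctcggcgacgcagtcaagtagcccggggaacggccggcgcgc

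Calr (chr8:84846935-84847181, minus strand): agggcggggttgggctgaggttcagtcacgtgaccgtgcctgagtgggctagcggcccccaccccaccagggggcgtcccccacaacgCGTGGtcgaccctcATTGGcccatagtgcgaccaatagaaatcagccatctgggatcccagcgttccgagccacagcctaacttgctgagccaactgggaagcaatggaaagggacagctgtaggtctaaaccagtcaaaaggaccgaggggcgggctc

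The ERSE-II match of Herpud1 began 52 bases before the RefSeq start, and its amino acid response core, on the other strand, 112 bases before. The ERSE of Hspa5 began 65 bases before the start. Hsp90b1 held one ERSE 212 bases before the start and another, on the other strand, 107 bases before. The matches of Creld2 and Calr, both on the other strand, began 126 and 162 bases before the start.

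The libraries differed in depth. Called cells numbered 2031, 2365 and 2926 (control, 3 h, 6 h), with median UMIs per cell of 48452, 11877 and 8004.5, and total UMIs in called cells of 104892739, 29892000 and 24681924. Levels are therefore given as UMIs relative to all UMIs in called cells (counts per 1000000, CPM), with exact 95% Poisson intervals that cover counting error only. Each pair of libraries shared 1 called barcode. The 10 embryonic stem cell markers summed to 4538, 5344 and 3975 CPM, and none was at 0. Dppa5a gave most of each sum (2549, 3555 and 2263 CPM), and single markers differed in both directions, with Sox2 at 205, 80.6 and 81.1 CPM, Fgf4 at 85.9, 22.9 and 35.1 CPM and Esrrb at 102, 131 and 193 CPM. Their part in the results below was not tested. The 12 primitive-endoderm markers summed to 162, 166 and 163 CPM, mostly Sparc and Lama1, with Sox17 at 0 at 6 h. The 2-cell-like list summed to less than 1 CPM in every library, at 0.0191, 0.0335 and 0.810 CPM, with Zscan4c and Zscan4f at 0 throughout and Tcstv3 (9 UMIs) and Zscan4d (7 UMIs) leading at 6 h, fibroblast markers to at most 2.67 CPM and trophoblast markers to at most 16.6 CPM. The share of mitochondrial UMIs was 2.95%, 3.43% and 2.87%.

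Herpud1 was the lowest of the 10 relative to the control, at both times. It encodes a ubiquitin-like-domain protein of the ER membrane that helps assemble the degradation complex around the ligase HRD1 (gene ENSMUSG00000031770, GRCm38 chr8:94386438-94395377, plus strand; it overlaps Gm15890 on the other strand). Its level was 34.4 CPM under DMSO (33.3 to 35.6; 3613 UMIs), 7.13 CPM after 3 h (6.201 to 8.15; 213 UMIs) and 3.57 CPM after 6 h (2.86 to 4.39; 88 UMIs). No interval overlapped another. The ratio of CPM was 4.83-fold lower at 3 h (interval 4.21 to 5.58) and 9.66-fold lower at 6 h (7.82 to 12.1). On the log2 scale with 1 CPM added to each level, the scale of all log2 ratios below, this was −2.13 at 3 h and −2.96 at 6 h. Among the 7884 genes averaging 10 CPM or more over the 3 libraries, these ratios ranked 7th and 2nd from the lowest. Herpud1 passed that mean through its control level, being below 10 CPM in both treated libraries. Genes that were as much lower from a smaller control level are not ranked. Chac1, described below, is one of them, and its log2 ratios were below those of Herpud1 at both times. The ranks thus depend on the filter.

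Both ratios share the control library, so they are not independent of each other. Between the treated libraries, which share no control, Herpud1 was 2.00-fold lower at 6 h than at 3 h (interval 1.55 to 2.59; log2 ratio −0.83). At most 10% mitochondrial UMIs per cell gave 34.3, 7.15 and 3.54 CPM.

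**Figure D1:**
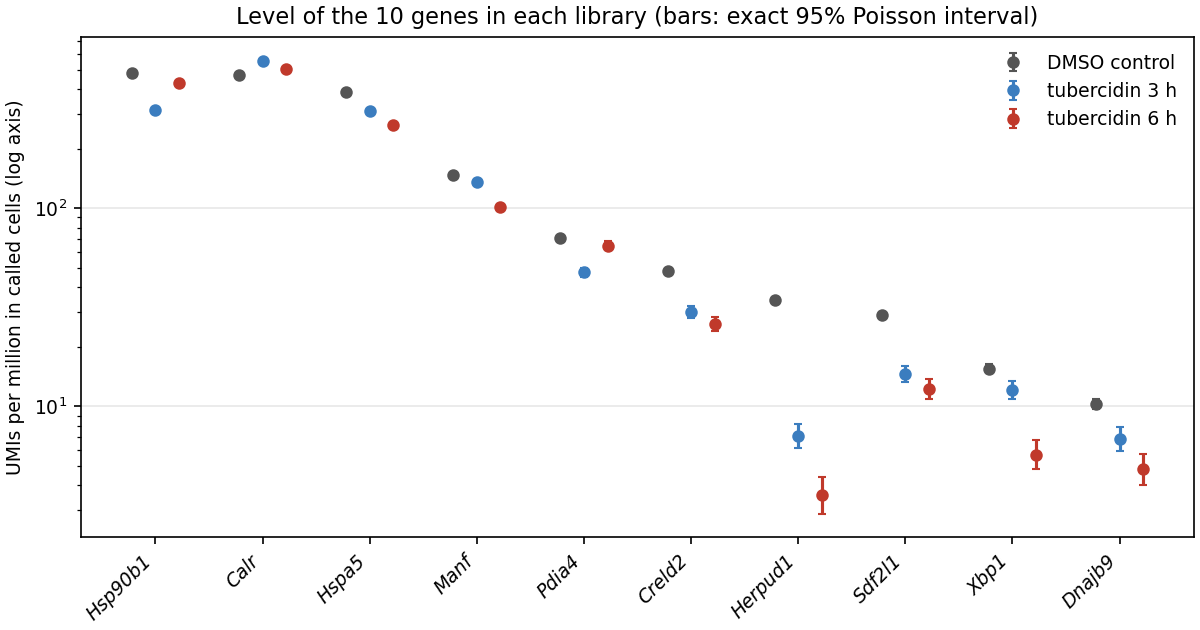
Level of each of the 10 genes in called cells of the 3 libraries, as CPM on a log axis; points are the libraries and bars are exact 95% Poisson intervals for counting error. Herpud1 steps down from 34.4 to 7.13 and 3.57, while Calr lies between 469 and 556 in all 3.

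Xbp1 encodes the transcription factor that IRE1 splicing activates (ENSMUSG00000020484, chr11:5520659-5525893, plus strand). These counts do not separate its spliced from its unspliced mRNA. Xbp1 stood at 15.5 CPM under DMSO (14.8 to 16.3; 1629 UMIs), 12.1 CPM after 3 h (10.9 to 13.5; 363 UMIs) and 5.71 CPM after 6 h (4.81 to 6.74; 141 UMIs). Most of its difference lay between 3 h and 6 h: it was 1.28-fold lower at 3 h (1.14 to 1.44), 2.72-fold lower at 6 h (2.29 to 3.25) and 2.13-fold lower at 6 h than at 3 h (1.75 to 2.60). The log2 ratios were −0.33, −1.30 and −0.97. Over the settings run, leaving out UMIs per cell, that at 3 h ranged from −0.37 to −0.11. In the comparison of 6 h with 3 h it ranked 19th from the lowest of the 7884 genes, ahead of Herpud1 at 35th. These ranks depend on the filter too.

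Sdf2l1 and Dnajb9 encode partners of the Hsp70 chaperone BiP: Sdf2l1 is a lumenal component of ER chaperone complexes, and Dnajb9 (ERdj4) is a J-domain cochaperone that also restrains IRE1. Sdf2l1 (ENSMUSG00000022769, chr16:17130138-17132383, minus strand) stood at 29.0 CPM under DMSO (28.0 to 30.1), 14.7 CPM after 3 h (13.3 to 16.1) and 12.2 CPM after 6 h (10.9 to 13.7). It was 1.98-fold lower at 3 h (1.79 to 2.19; log2 ratio −0.94) and 2.37-fold lower at 6 h (2.11 to 2.68; −1.18). Unlike Xbp1, it was in CPM already near its 6 h level at 3 h. The 2 treated intervals overlapped, though the direct ratio was 1.20-fold lower at 6 h than at 3 h (1.03 to 1.39). How near depended on the processing. Over the settings run, leaving out UMIs per cell, the log2 ratio of 6 h against 3 h ranged from −0.45 to −0.14. Dnajb9 (ENSMUSG00000014905, chr12:44205559-44210326, minus strand) stood at 10.3 CPM under DMSO (9.66 to 10.9), 6.86 CPM after 3 h (5.95 to 7.86) and 4.82 CPM after 6 h (3.99 to 5.77). Its ratio of CPM at 6 h was 2.13-fold lower (1.76 to 2.60), but with 1 CPM added the log2 ratio was −0.95, short of the 2-fold rule. Dnajb9 was the one gene of the 10 whose mean over the libraries was under 10 CPM, so 9 of the 10 are among the 7884 genes.

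Creld2 and Manf encode small ER proteins that are secreted on ER stress. Creld2, a protein with disulfide isomerase activity (ENSMUSG00000023272, chr15:88819646-88826683, plus strand), stood at 48.1 CPM under DMSO (46.8 to 49.4), 30.0 CPM after 3 h (28.1 to 32.1) and 26.1 CPM after 6 h (24.1 to 28.1). It was 1.60-fold lower at 3 h (1.49 to 1.72) and 1.85-fold lower at 6 h (1.70 to 2.01), with log2 ratios of −0.66 and −0.86. Manf, which binds BiP (ENSMUSG00000032575, chr9:106838312-106891979, minus strand), stood at 147 CPM under DMSO (145 to 149), 136 CPM after 3 h (132 to 140) and 101 CPM after 6 h (97.6 to 106). It was 1.08-fold lower at 3 h (1.05 to 1.12) and 1.45-fold lower at 6 h (1.39 to 1.51), with log2 ratios of −0.11 and −0.53. The direction of Manf at 3 h depended on the scaling: its log2 ratio was 0.12 with median-of-ratios size factors and 0.08 with TMM factors. The Manf annotation overlaps Rbm15b on the same strand and Dcaf1 on the other, so its counts are uncertain to that extent.

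Hspa5 encodes BiP, the ER Hsp70 (ENSMUSG00000026864, chr2:34771970-34777547, plus strand). It stood at 388 CPM under DMSO (384 to 391.6), 309 CPM after 3 h (303 to 316) and 262 CPM after 6 h (256 to 269). The level was 1.25-fold lower at 3 h (1.23 to 1.28; log2 ratio −0.33) and 1.48-fold lower at 6 h (1.44 to 1.52; −0.56). The size of the 3 h difference depended on the processing. Over the settings run, leaving out UMIs per cell, its log2 ratio ranged from −0.34 to −0.085.

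Hsp90b1 encodes GRP94, the ER Hsp90 (ENSMUSG00000020048, chr10:86690209-86705509, minus strand; it contains Gm15344 and Gm25745 on the same strand). It stood at 483 CPM under DMSO (479 to 488), 312 CPM after 3 h (306 to 319) and 428 CPM after 6 h (420 to 437). It was thus lowest at 3 h, with log2 ratios of −0.63 at 3 h and −0.17 at 6 h, and was 1.37-fold higher at 6 h than at 3 h (1.33 to 1.41). Pdia4 encodes the disulfide isomerase ERp72 (ENSMUSG00000025823, chr6:47796141-47813430, minus strand) and had the same order of levels. It stood at 70.6 CPM under DMSO (69.0 to 72.2), 47.6 CPM after 3 h (45.2 to 50.2) and 64.9 CPM after 6 h (61.8 to 68.2). Its log2 ratios were −0.56 at 3 h and −0.12 at 6 h, and it was 1.36-fold higher at 6 h than at 3 h (1.27 to 1.46).

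Calr, the gene of the glycoprotein-binding chaperone calreticulin (ENSMUSG00000003814, chr8:84841850-84846934, minus strand), was the one gene of the 10 above the control. It stood at 469 CPM under DMSO (465 to 473), 556 CPM after 3 h (548 to 565) and 504 CPM after 6 h (495 to 512). It was 1.19-fold higher at 3 h (1.16 to 1.21; log2 ratio 0.25) and 1.07-fold higher at 6 h (1.05 to 1.09; 0.10). Its level varied with the depth of the cell. With cells split in 3 by total UMIs, from fewest to most, it stood at 523, 477 and 438 CPM in the control. The same split gave 528, 537 and 472 CPM at 6 h. The shallowest control cells thus lay above the 6 h level of all cells, and the part of depth in the difference was not tested. The 4 genes with an ERSE in the printed promoters did not share a direction: at 6 h Creld2, Hspa5 and Hsp90b1 lay below the control and Calr above it.

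By the rule of at least 2-fold, 1 of the 10 genes (Herpud1) was lower at 3 h, where 5.54% of the 7884 genes were lower and 0.888% higher. At 6 h 3 of the 10 (Herpud1, Xbp1 and Sdf2l1) were lower, against 4.41% of the 7884 genes lower and 2.33% higher. Between 6 h and 3 h none passed in either direction, against 0.165% lower and 1.64% higher. Xbp1 was 2.13-fold lower there in its ratio of CPM, but with 1 CPM added its log2 ratio was −0.97, short of the rule. None of the 10 was 2-fold higher in any comparison. In direction, 9 of 10 lay below the control at each time, and 72.6% and 60.3% of all 7884 genes did so. The median log2 ratio of the 10 was −0.54 at 3 h and −0.71 at 6 h, and that of the 7884 genes was −0.27 and −0.12. Between 6 h and 3 h, 8 of the 10 were lower, with a median of −0.24, where the median gene was at 0.14.

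Every counting interval of the 10 genes excluded a ratio of 1 in all 3 comparisons, which reflects large counts and says nothing of variation between cultures. The balance of all genes at 3 h depended on the scaling, with 437 lower and 70 higher in CPM, 166 and 139 with median-of-ratios factors, and 202 and 126 with TMM factors. Those factors put the median gene at −0.04 and −0.09, and the median of the 10 at −0.31 and −0.36. For 6 h against 3 h the counts of all genes were 13 lower and 129 higher in CPM and 45 and 57 with either set of factors. Both sets then placed Herpud1 and Xbp1 past 2-fold.

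**Figure D2:**
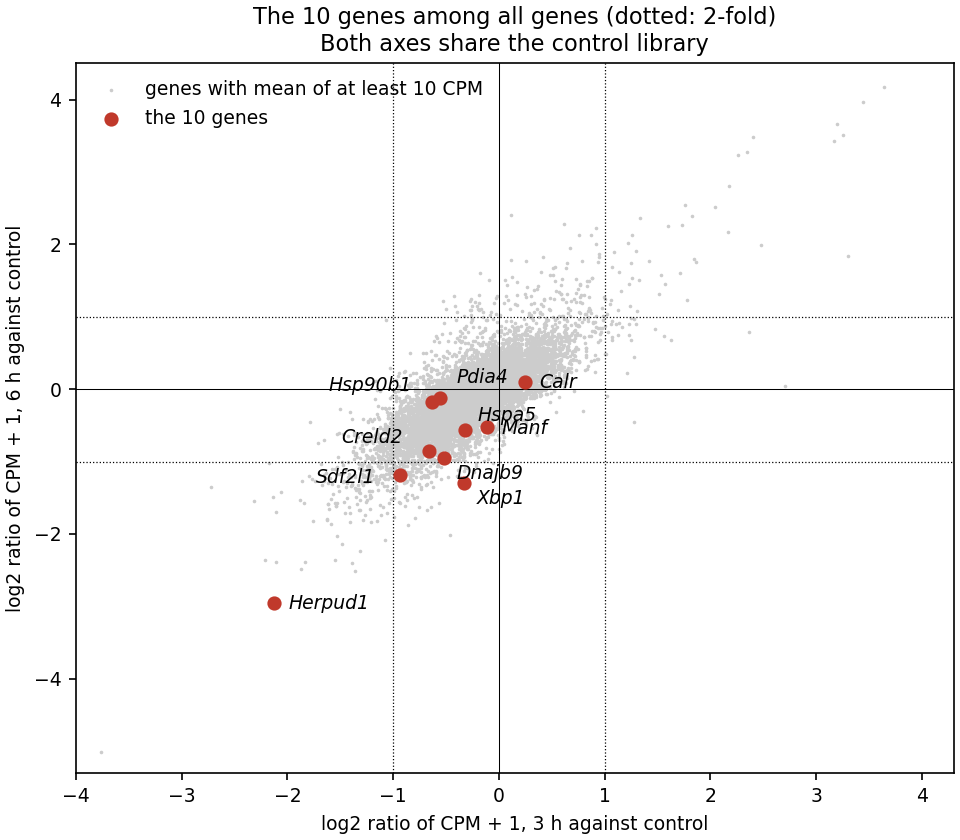
Log2 ratio of CPM + 1 at 3 h (horizontal) and at 6 h (vertical) against the control for the 10 genes in red and all genes averaging 10 CPM or more in grey; dotted lines mark 2-fold. Both axes use the same control library, so the spread along the diagonal is partly shared; Herpud1 lies at −2.13 and −2.96, and Calr alone lies above 0 on both axes.

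Counted per cell rather than as CPM, all 10 genes were lower in the treated libraries. The 10 genes together gave 87.5 UMIs per control cell, 18.1 per 3 h cell and 11.9 per 6 h cell. Herpud1 fell from 1.78 UMIs per cell to 0.0901 and 0.0301, and Hspa5 from 20.03 to 3.91 and 2.21. Per cell, 98.7% of the 7884 genes were at least 2-fold lower at 3 h and 99.2% at 6 h, with median log2 ratios of −2.16 and −2.53. Less RNA in a cell and shallower sequencing of a library cannot be told apart in such values. As a share of all UMIs in called cells, the 10 genes made up 1695, 1432 and 1413 CPM in the control, 3 h and 6 h libraries.

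Fewer cells held a UMI of most of the 10 genes when every cell was thinned to 4000 UMIs, which removes the difference in depth. All 2031 control cells could be thinned, and 122 cells at 3 h and 284 at 6 h were too shallow and left out. A Herpud1 UMI was found in 13.8% of control cells (exact 95% interval 12.4% to 15.4%), 2.76% of 3 h cells (2.13% to 3.53%) and 1.40% of 6 h cells (0.988% to 1.93%). Without thinning the shares were 74.99%, 8.12% and 2.87%. The order of the libraries was thus the same at equal depth, and no interval overlapped another.

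Xbp1 was found in 5.51% of thinned control cells, 4.95% of 3 h cells and 2.27% of 6 h cells, and the first 2 intervals overlapped. Sdf2l1 was found in 10.3%, 5.66% and 4.47% of cells, and Hspa5 in 73.8%, 66.3% and 60.0%. Hsp90b1, found in 83.6%, 66.6% and 78.8%, and Pdia4, in 23.2%, 16.7% and 21.2%, were again lowest at 3 h. Calr, at 82.5%, 85.8% and 82.9%, was not lower in either treated library. Without thinning the shares of all 10 genes were lower in each treated library, for example 99.8%, 90.4% and 79.1% for Hspa5. A thinned control cell held UMIs of 4 of the 10 genes at the median, and a treated cell of 3 at either time.

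**Figure D3:**
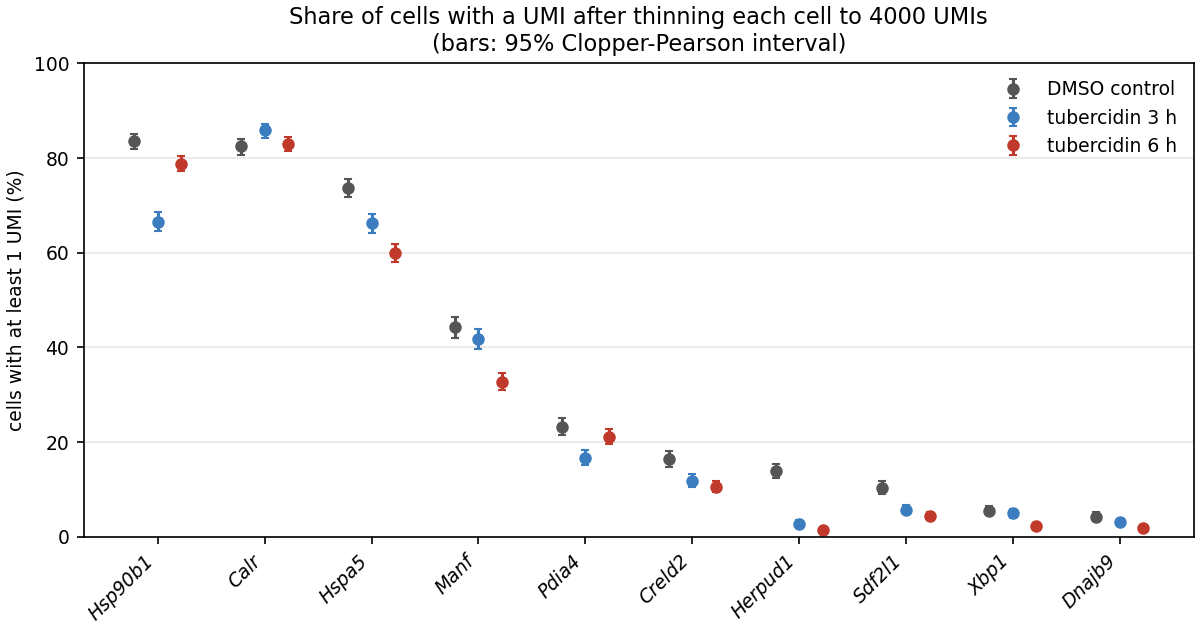
Share of cells with at least 1 UMI of each gene after thinning each cell to 4000 UMIs, in percent; points are the 3 libraries and bars are exact 95% binomial intervals over cells. Herpud1 falls from 13.8% to 2.76% and 1.40%, while Calr stays between 82.5% and 85.8%.

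The level of Herpud1 varied little with the depth of the cell. When the cells of each library were split in 3 by total UMIs, from fewest to most, Herpud1 stood at 34.5, 36.6 and 32.9 CPM in the control. It stood at 7.15, 7.02 and 7.18 CPM at 3 h, and at 4.18, 3.85 and 3.14 CPM at 6 h. The lowest control value therefore exceeded every treated value. Hspa5 did vary with depth, at 477, 375 and 353 CPM for control cells. The same split gave 372, 310 and 285 CPM for 3 h cells and 301, 293 and 227 CPM for 6 h cells. The shallowest 3 h cells, at 372 CPM, lay above the deepest control cells, at 353 CPM.

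Free RNA in droplets without a cell was measured in the 10000 barcodes that rank after the first 5000 by UMIs. All 3 libraries hold 1 cell line, so no cell type lacking these genes was at hand, and these barcodes give the background. Herpud1 stood there at 30.0 CPM under DMSO (24.5 to 36.3; 104 UMIs), 6.08 CPM after 3 h (3.24 to 10.4; 13 UMIs) and 2.83 CPM after 6 h (0.771 to 7.25; 4 UMIs), the same order as in cells. The 10 genes together made up 1285, 1025 and 935 CPM outside cells. Subtracting this profile at 10% of UMIs left the same 3 genes past 2-fold lower at 6 h.

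Within a library the 10 genes varied little together from cell to cell. Every Pearson r here and below was computed on log-transformed UMIs of thinned cells. Over the 45 pairs, the median Pearson r across cells at 4000 UMIs was 0.024 in the control (2031 cells), 0.027 at 3 h (2243 cells) and 0.009 at 6 h (2642 cells), in counts too sparse to read weak values. The cells share a library, and these r are descriptions. The highest pair was Hspa5 with Calr in the control (0.160), and Hspa5 with Hsp90b1 at 3 h (0.178) and at 6 h (0.203).

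Control cells are deep enough for 11000 UMIs each, and there the highest pairs were Hspa5 with Calr (0.289), Hspa5 with Hsp90b1 (0.273) and Hsp90b1 with Calr (0.270). Among 3603 genes with at least 0.5 UMI per such cell, the 5 with the highest r with Hspa5 were Calr, Hsp90b1, Manf (0.206), Dynll1 (0.174), a dynein light chain, and Ccne1 (0.173), the gene of cyclin E1. The median over these genes was 0.008. Herpud1, at 0.397 UMI per such cell, was below that minimum and was not ranked. Its r with Hspa5 was −0.002, and its r with the other 9 genes ran from −0.031 to 0.003. The 5 genes with the highest r with Herpud1 were Atf4 (0.112), Hk2 (0.085), Eif4ebp1 (0.084), Asns (0.082) and Gars (0.080). These values are weak and are the highest picked from 3604 genes, and any link between these genes and Herpud1 was not tested. Atf4 encodes the factor translated on eIF2α phosphorylation, and Asns, Eif4ebp1 and Gars are known targets of it.

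One control cell stood far from the rest in Hspa5. It held 288 Hspa5 UMIs among 22693, or 50.8 per 4000 UMIs, where the next highest cell had 7.35 and the median cell 1.41. It was picked out after its values were seen. Relative to the other control cells it was 33.0-fold higher in Hspa5 (exact 95% interval 29.2 to 37.0), 15.9-fold in Manf (11.9 to 20.9), 13.8-fold in Creld2 (7.71 to 22.8), 10.6-fold in Calr (8.76 to 12.8) and 8.86-fold in Hsp90b1 (7.18 to 10.8). Pdia4 was 7.50-fold higher from 12 UMIs, and Sdf2l1, Xbp1 and Dnajb9 had 4, 3 and 2 UMIs. Herpud1 had 1 UMI, a ratio of 1.28 with an interval of 0.0324 to 7.13. Among genes with at least 10 UMIs in this cell, the 10 highest by fold were E330020D12Rik (200.3-fold, 14 UMIs), Hspa5, 2410006H16Rik (32.0-fold, 77 UMIs), Tenm3 (21.3-fold), Manf, Pdia6 (14.9-fold), Ssr3 (14.5-fold), Creld2, Tmem248 (12.5-fold) and Dnajc3 (12.4-fold). Pdia6 encodes a disulfide isomerase, Ssr3 a subunit of the translocon-associated complex and Dnajc3 a BiP cochaperone.

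Its embryonic stem cell markers summed to 1190 CPM against 4539 CPM in the other control cells. Dppa5a made up most of that difference, at 353 CPM (8 UMIs) against 2550 CPM. Dppa4, at 176 CPM against 106 CPM, rested on 4 UMIs, too few to set this cell apart from the others. Nanog, Esrrb and Fgf4 were at 0, where 0 UMIs among 22693 allow up to 132 CPM, above their levels in the other control cells. Its primitive-endoderm list held 9 UMIs, 8 of Sparc and 1 of Col4a1, with Gata6, Gata4 and Sox17 at 0, and 5.50% of its UMIs were mitochondrial. The part of cell identity in these values was not tested. Without this cell the Fano factor (variance over mean) of Hspa5 in thinned control cells was 1.37 in place of 2.39, that of Calr 1.24 in place of 1.33, and the highest r at 11000 UMIs 0.280. The counts of genes past 2-fold stayed at 1, 3 and 0.

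**Figure D4:**
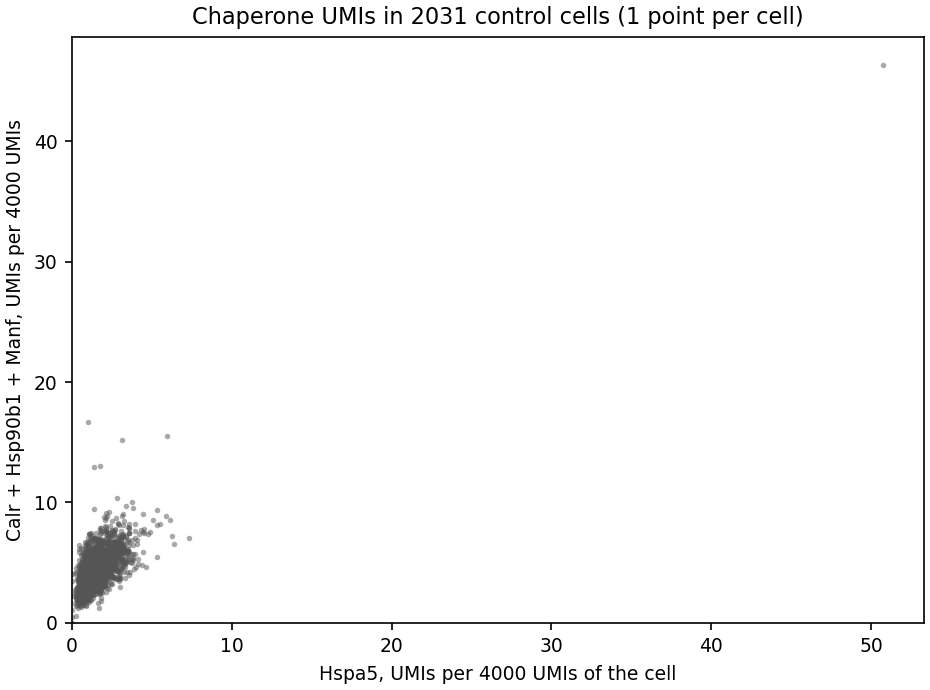
Each point is 1 of the 2031 control cells, with its Hspa5 UMIs per 4000 UMIs (horizontal) and its summed Calr, Hsp90b1 and Manf UMIs per 4000 UMIs (vertical). One cell lies at 50.8 on the horizontal axis, and no other exceeds 7.35.

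The wider ER pathway was described by lists of genes averaging 1 CPM or more, each set beside all 13587 genes past that mean. Of these, 6.2% were 2-fold lower and 1.6% higher at 3 h, and 5.11% lower and 4.56% higher at 6 h, with medians of −0.25 and −0.09. Of 14 UPR sensors and transcription factors, Creb3l2 was 2-fold lower at 3 h, and Creb3l2 and Xbp1 at 6 h, with medians of −0.22 and −0.15. Among them Eif2ak3, which encodes PERK, stood at 16.2, 14.02 and 25.7 CPM (control, 3 h, 6 h), a log2 ratio of 0.63 at 6 h. Atf6b, the paralog of Atf6, stood at 15.2, 12.0 and 8.31 CPM, with −0.80 at 6 h. The NF-Y subunits differed, with Nfya at −0.49 and Nfyc at 0.33. Of 24 chaperones and cochaperones, Dnajc1 and Sdf2l1 were 2-fold lower at 6 h and none higher, with a median of −0.31. This list and those of sensors, oxidoreductases and degradation include some of the 10 genes. Of the 17 chaperones and cochaperones outside the 10, Dnajc1 alone was 2-fold lower at 6 h. Their medians were −0.09 at 3 h and −0.28 at 6 h. At 3 h Dnajc1 was lower and Fkbp10, a prolyl isomerase, higher. The lectin chaperone Canx, the membrane-bound relative of Calr, stood at 238, 228 and 344 CPM, with a log2 ratio of 0.53 at 6 h, whereas Dnajb11, a BiP cochaperone, was at −0.90.

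Of 35 genes of ER-associated degradation, Herpud1 and the ligase Rnf5 were 2-fold lower at 3 h. At 6 h Herpud1, Syvn1 (HRD1) and Selenos, which recruits the p97 ATPase, were lower. The medians were −0.22 and −0.16, where those of the 13587 genes were −0.25 and −0.09. Selenos stood at 60.4, 33.7 and 24.8 CPM, and Syvn1 at 4.42, 1.91 and 1.62 CPM. Nploc4, a p97 cofactor, was above the control at 6 h (0.61). After Herpud1, at −2.96, the lowest of the list at 6 h was Selenos at −1.25, with 1 CPM added to each level. At levels as low as those of Syvn1 the added 1 CPM shrinks the ratio. The place of Syvn1 in this order and its absence from the 3 h call depend on it.

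Of 20 oxidoreductases, none was past 2-fold at 3 h and Selenof was lower at 6 h (128, 72.1 and 53.2 CPM; −1.25), with a median of −0.28. Tmx3 was at −0.82, Erp29 at 0.24 and Selenom at 0.34. Of 37 genes of translocation, signal peptidase and glycosylation, none was past 2-fold at 3 h, and Srp9 of the signal recognition particle and the glucosidase Mogs were lower at 6 h, with a median of −0.31. Sec61a1, the channel of the translocon, was at 0.73 and Srp19 at 0.55, with Spcs3 of the signal peptidase at −0.99. Sec61a1 stood higher outside the called cells than in them in every library, with values given at the end. The part of free RNA in its ratio was not tested. None of 32 ER-to-Golgi genes was past 2-fold at either time, with a median of −0.08 at 6 h. Kdelr3, a receptor that returns ER proteins from the Golgi, was at 0.65 and Stx5a at 0.33, while Sec13 and Sar1b of the COPII coat were at −0.85 and −0.81.

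The PERK and ATF4 branch had the lowest median of the lists at 6 h. Of its 16 genes, 8 were 2-fold lower at each time and none higher, with medians of −1.01 and −1.05, beside the 6.2% and 5.11% of the 13587 genes that were lower. Atf4 stood at 182, 77.6 and 63.6 CPM (log2 ratios −1.22 and −1.50). Ddit3, the gene of CHOP, stood at 25.4, 6.19 and 8.14 CPM (−1.88 and −1.53), and Chac1, a glutathione-degrading CHOP target, at 26.2, 1.07 and 1.01 CPM (−3.72 and −3.76). Nupr1 (0.53 and 0.18) and Sesn2 (−0.49 and −0.21) were the highest at 6 h among those above 10 CPM. Asns, in the same list, stood at 289, 293 and 237 CPM. Choosing the 10 genes and these lists with the values known gives their order no weight as evidence.

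**Figure D5:**
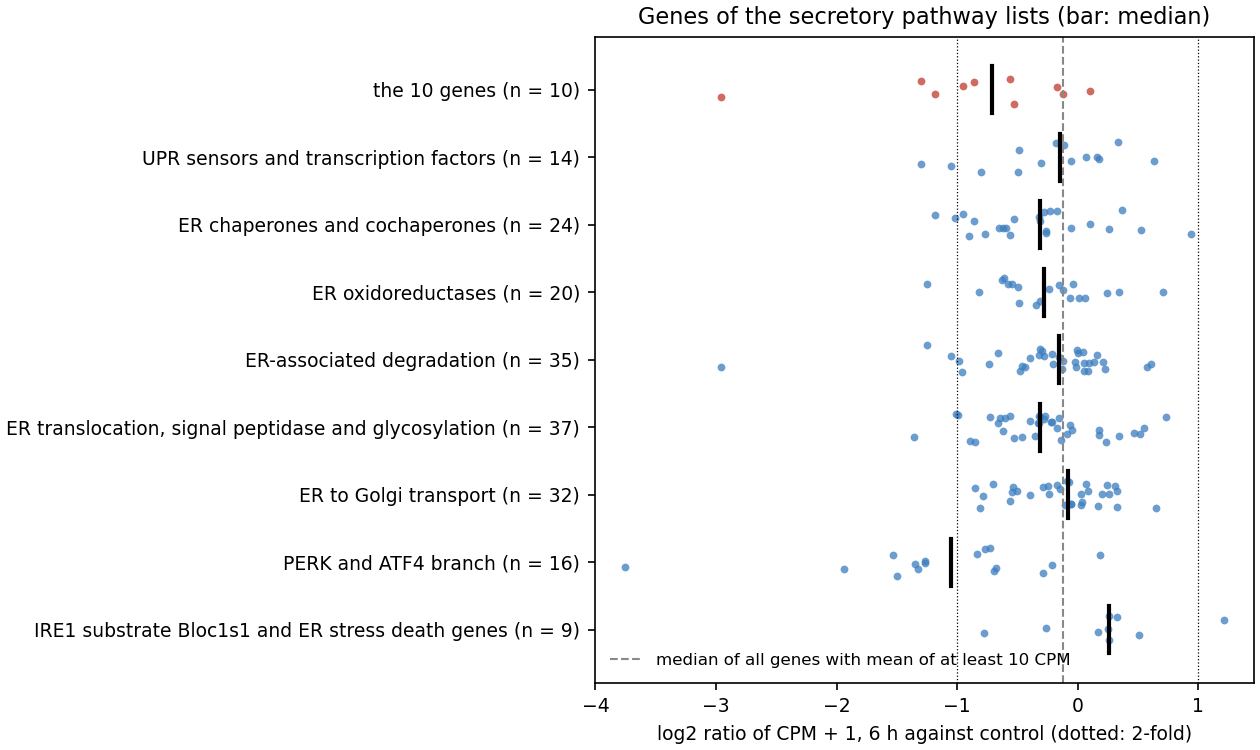
Log2 ratio of CPM + 1 at 6 h against the control for every gene of each list (1 point per gene); the dashed line is the median of the 7884 genes at −0.12 and dotted lines mark 2-fold. The PERK and ATF4 genes have their median at −1.05, and Herpud1 is the lowest point among ER-associated degradation genes.

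The genes nearest to Herpud1 in their pair of log2 ratios, by Euclidean distance over the 3 libraries, were Gbx2 (0.53), Cited2 (0.56), Fbxo5 (0.60), Plk3 (0.64) and Zfp296 (0.83). None of them is an ER gene: Gbx2, Cited2 and Zfp296 encode transcriptional regulators, Fbxo5 an inhibitor of the anaphase-promoting complex and Plk3 a kinase. Gbx2 stood at 22.1, 5.32 and 3.12 CPM (control, 3 h, 6 h), and Fbxo5 at 133, 27.9 and 25.04 CPM. Cited2 stood at 57.9, 12.7 and 10.2 CPM, Plk3 at 21.5, 5.29 and 3.28 CPM and Zfp296 at 29.2, 9.33 and 4.86 CPM. With 3 libraries such likeness rests on 2 ratios that share a control. Only genes averaging 10 CPM or more and not named as predicted genes were compared. Gbx2, Plk3 and Zfp296 passed that mean through their control level, and genes as much lower from a smaller control level could not appear.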

How the data were processed

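Polyadenylated RNA of single E14 mESCs was profiled in 3 libraries, 1 per group. The authors deposited raw UMI counts per gene and barcode, with all barcodes kept. Cell Ranger 7.1.0 and the mm10 build come from the submitters' processing notes, and the annotation and the treatment of intronic reads are not given in the sources used here. Cells were called here as barcodes with at least 1 part in 10 of the UMIs at the 99th percentile of the 3000 largest barcodes, with a minimum of 500 genes and a limit of 20% for mitochondrial UMIs. Doublets were kept. UMIs were summed per library and scaled to CPM. Ratios are log2 of CPM + 1, called at 2-fold by size, because 1 library per group allows no test. Intervals are exact 95% Poisson for levels, exact conditional binomial for ratios and Clopper-Pearson for shares. UMIs reduce but do not remove dependence between molecules, so all intervals cover counting error only. A count of 0 would allow up to 3 counts, or 0.0286, 0.100 and 0.122 CPM in the control, 3 h and 6 h libraries. UMIs outside called cells made up 9.31%, 15.5% and 15.9%.

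The 10 genes and all gene lists were chosen with earlier results of these data known. Named genes are all 10, from each list the 2 lowest and 2 highest at 6 h averaging 10 CPM or more, the 5 nearest to Herpud1, the 5 highest cell partners of Hspa5 and of Herpud1, and Atf4, Ddit3 and Chac1; 1 gene that this rule names is not reported here. Syvn1, Mogs, Creb3l2, Asns in its list, and genes of the outlying control cell were named after their values were seen. Alternatives covered cell cut-offs, mitochondrial limit, doublets, scaling, free RNA, cell weight, pseudocount, filters and thinning. The ratio script was tested on simulated counts. R 4.3.3 with edgeR 4.0.16 gave the TMM factors only. All else ran in Python 3.11.15 with scipy 1.17.1, pandas 2.3.3, numpy 2.4.6 and matplotlib 3.10.9. Gene positions are from GENCODE M21 (GRCm38, the same build as mm10) and promoter sequences from RefSeq GRCm38.p6.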

Additional observations from a re-analysis of the deposited data

Results flagged for a closer look

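Calr was higher outside the called cells at 3 h than in the control: 505 CPM (475.5 to 536) in the 3 h library against 413 CPM (392.4 to 435) in the control, with 425 CPM (391 to 460) at 6 h. These barcodes lie outside the cells that the comparisons use. In called cells the same gene had the same order, with 556, 469 and 504 CPM at 3 h, in the control and at 6 h. The difference was not tested, since each group is 1 library.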

How the results depend on the processing

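No paired analysis was possible because each group holds 1 library. At 3 h, the number of the 10 genes at least 2-fold lower, 1 in the main result, was 10 when UMIs were counted per cell without scaling to the library total, and 2 when each cell had equal weight (Herpud1 and Sdf2l1). At 6 h the number, 3 in the main result, was 10 with UMIs per cell. Between 6 h and 3 h the number, 0 in the main result, was 2 with median-of-ratios size factors and 2 with TMM factors. It was 1 (Xbp1) with the UMI minimum doubled, with UMIs per cell, with free RNA subtracted and with a pseudocount of 0.1 CPM. All other settings run gave counts within 1.5 times the main ones. No result past 2-fold changed direction under the alternatives run. Leaving out UMIs per cell, Herpud1 ranged from −2.29 to −1.90 at 3 h and from −3.24 to −2.87 at 6 h, Xbp1 from −1.43 to −1.17 at 6 h and Sdf2l1 from −1.24 to −1.15 at 6 h. Dnajb9 ranged from −1.07 to −0.89 at 6 h and passed 2-fold with the smaller pseudocount and with thinned cells. The control cell of highest Hspa5 share was left out as an alternative chosen after seeing the data. The 6 h level of Herpud1 rests on 88 UMIs in 2926 cells. With 1 library per group, variation between cultures was not measured.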

Other observations

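Of 9 genes on a list of the IRE1 substrate Bloc1s1 and genes of ER stress death, 7 lay above the control at each time, with medians of 0.04 at 3 h and 0.26 at 6 h. Of all 13587 genes averaging 1 CPM or more, 30.4% and 43.2% lay above it, and 1.6% and 4.56% were 2-fold higher. The list mixes genes of different roles, so its count and median do not measure a single process. The part of ER stress in these values was not tested. Tnfrsf10b, which encodes the death receptor DR5, stood at 10.9, 18.2 and 26.6 CPM (control, 3 h, 6 h), and was the one gene of the list 2-fold higher at 6 h (log2 ratio 1.21). Bak1, a pore-forming BCL-2 family member, stood at 28.1, 35.2 and 40.4 CPM. Txnip, which binds thioredoxin, stood at 57.5, 28.2 and 33.1 CPM and was 2-fold lower at 3 h. Tmbim6, an ER membrane protein, was at −0.22 and −0.26.

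Sec61a1 stood higher outside the called cells than in them in every library: 445.8 against 77.3 CPM in the control, 170 against 77.8 CPM at 3 h and 423 against 129 CPM at 6 h. Of the 10 genes, Dnajb9 in the control was the one that stood higher outside called cells than in them, at 12.7 CPM (9.21 to 17.0; 44 UMIs) against 10.3 CPM, within its interval.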
